A study of Mus musculus with 8 samples.

Results

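Cholesterol and fatty acid synthesis in beta cells was described through 28 genes taken by name from a table of 44343 genes, 17 of the cholesterol branch and 11 of the fatty acid branch. RNA was sequenced from pancreatic beta cells, the insulin-secreting cells of the islet, after loss of Adar, which encodes an editor of adenosine to inosine in RNA duplexes. The 4 KO libraries came from MipCreER; Adar floxed/floxed mice and the 4 HET libraries from MipCreER; Adar floxed/+ mice, so the controls also carry 1 floxed allele and are not wild type. MipCreER is a tamoxifen-inducible Cre driven by an insulin promoter, and all mice carried R26R-EYFP, which marks cells in which Cre was active. Mice of 1 month received 2 doses of 8 mg tamoxifen, and 7 days later cells positive for YFP were sorted from their islets. The study set out to find what in beta cells lies behind the inflamed islets seen after Adar inactivation. How many mice gave each library is not stated, so errors and p-values measure the spread between libraries.

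Cells make cholesterol from acetyl-CoA through mevalonate, isoprenoids and squalene, and fatty acids through malonyl-CoA, followed by elongation and desaturation. Both branches are switched on by SREBP transcription factors. SCAP escorts these from the endoplasmic reticulum when sterols are low, and INSIG proteins hold them back when sterols are plentiful. In beta cells, membrane cholesterol and fatty acid derivatives are known to affect insulin granules and secretion.

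Recovered reads ranged from 5370765 to 15883473 in KO libraries and from 5925893 to 12819040 in HET libraries. Under the deposited size factors, the median level of the 6697 genes with a mean of at least 200 differed between libraries. In log2 units from the average it was 0.88, 0.96, −0.77 and −0.56 in KO 1 to KO 4 and between −0.46 and 0.22 in HET. That spread would pass into every gene described here, so all values below are recovered reads divided by library sizes taken from those 6697 genes, called normalised counts. After this step the median of the same genes lay within 0.012 log2 units of the average in each library. Olfactory and vomeronasal receptor genes, best known from sensory neurons, took 0.0498%, 0.0353%, 0.327% and 0.294% of reads in KO 1 to KO 4, and 0.0868% to 0.244% in HET. Mitochondrial genes took 8.33%, 10.4%, 17.4% and 7.23% of reads in KO 1 to KO 4, and 6.90% to 8.35% in HET. The Y-linked gene Ddx3y was at 1.10 in KO 3 and at 0 in KO 4 under the deposited scaling, and Xist was at 19.2 in HET 1, so these 3 libraries hold reads of 1 sex and the other 5 of both. All 11 beta-cell markers listed (Ins1, Ins2, Iapp, Mafa, Nkx6-1, Pdx1, Slc2a2, Ucn3, G6pc2, Slc30a8 and Ero1lb) had a mean of at least 200. They took 3.75%, 8.31%, 10.8% and 4.30% of reads in KO 1 to KO 4 and 9.45% to 11.9% in HET. Adar was at 2245, 1243, 1078 and 2033 in KO 1 to KO 4 and at 1037 to 1197 in HET, and such a count over the whole gene is no check of the deletion.

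Promoter sequences are shown for 4 chosen genes, the enzyme gene Hmgcs1, the regulators Srebf2 and Insig1, and Fasn. Of them Srebf2 and Fasn passed the test described below and Hmgcs1 and Insig1 did not. Called genes such as Scd2, Fads1, Fads2 and Dhcr7 are not shown. RefSeq's promoter table for GRCm38.p6, which is the mm10 build, held 27 windows for 22 of the 28 genes. In the 250 bases before each start, 3 motifs were searched on both strands, TCACNCCA (the core of a sterol regulatory element), CCAAT (bound by NF-Y) and CACGTG (an E-box). Capitals mark matches, and bases that the annotation places in an exon are left out.
Hmgcs1, chr13:119690101-119690350, plus strand: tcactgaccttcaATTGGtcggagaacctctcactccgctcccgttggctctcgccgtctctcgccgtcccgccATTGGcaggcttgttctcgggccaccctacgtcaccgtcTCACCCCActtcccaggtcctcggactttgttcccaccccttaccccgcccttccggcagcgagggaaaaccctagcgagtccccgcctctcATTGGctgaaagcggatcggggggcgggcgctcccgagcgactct
Srebf2, chr15:82147019-82147180, plus strand: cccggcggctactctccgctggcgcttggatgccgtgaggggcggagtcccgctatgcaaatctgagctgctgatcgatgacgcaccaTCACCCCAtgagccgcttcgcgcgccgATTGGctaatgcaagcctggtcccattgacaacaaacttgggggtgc
Insig1, chr5:28071162-28071362, plus strand: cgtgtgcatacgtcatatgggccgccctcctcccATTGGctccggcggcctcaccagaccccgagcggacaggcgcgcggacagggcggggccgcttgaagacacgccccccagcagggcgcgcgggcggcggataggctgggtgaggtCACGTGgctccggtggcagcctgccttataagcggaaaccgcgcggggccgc
Fasn, chr11:120824548-120824797, minus strand: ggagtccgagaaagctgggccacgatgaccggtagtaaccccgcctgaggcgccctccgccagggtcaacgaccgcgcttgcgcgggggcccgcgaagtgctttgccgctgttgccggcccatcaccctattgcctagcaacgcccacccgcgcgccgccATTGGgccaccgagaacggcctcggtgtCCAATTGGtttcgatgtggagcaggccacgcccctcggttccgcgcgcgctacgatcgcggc
Hmgcs1 holds TCACNCCA from position −137 before the start and CCAAT at 3 places. Srebf2 holds TCACNCCA from position −162 and CCAAT from −135, and Insig1 holds CCAAT and CACGTG. Fasn holds CCAAT 3 times, where the matches from −62 and −59 lie on opposite strands and overlap in 2 bases. TCACNCCA occurred in 3 of 22 genes with a window (Hmgcs1, Msmo1 and Srebf2), in 11.1% of the 27 windows and in 3.67% of all 32851 windows. CCAAT occurred in 16 of 22 genes, in 63.0% of their windows and in 33.8% of all windows. CACGTG occurred in 5 of 22 genes, in 18.5% of their windows and in 6.02% of all windows. A match describes letters and shows no binding.

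The 28 genes were all lower on average in KO than in HET beta cells, with KO means from 42.1% of the HET mean (Scd2) to 98.1% (Fdps). Their log2 fold changes were negative in 28 of 28 with library sizes from expressed genes and in 25 of 28 with the deposited size factors. With DESeq2, which set its own size factors, 10 of 17 cholesterol and 8 of 11 fatty acid genes were negative. By library, 28, 23, 24 and 26 of the 28 genes lay below the HET mean in KO 1 to KO 4. Of the 6697 genes with a mean of at least 200, 3293 to 3351 did so in each KO library. Fold changes of members with a mean under 200 came from a fit over 21498 genes. There, low genes of other cell types were often negative too, such as Kdr (−0.86) and Col1a1 (−0.82), while some were positive, such as Pnlip (0.31). A negative sign alone therefore says little about members of low level. Scd2 and Fasn had the lowest KO means relative to HET, and Scd2, Fasn, Srebf2 and Fads1 passed the test. Dhcr7 and Fads2, whose means were under 200, passed a test that also took in genes of low level, where Scd2 and Fasn passed again and Srebf2 (limma adjusted p = 0.082) and Fads1 (0.092) did not, so neither fit called all 6. No member was called higher by limma, edgeR or DESeq2.

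The test was limma on log2(normalised count + 1), KO minus HET, over the 6697 genes with a mean of at least 200 under the deposited scaling, with a Benjamini-Hochberg adjusted p under 0.05. It took in 19 of the 28 members. Of all genes tested, 6.03% were called higher and 4.24% lower. In the cholesterol branch 1 of 11 tested members was called lower (Srebf2), and in the fatty acid branch 3 of 8 (Scd2, Fasn and Fads1). At an unadjusted p under 0.05, 7 of 11 and 7 of 8 were lower and 0 were higher. Of all 6697 genes tested, 1023 were lower and 1045 higher at that p. At that p edgeR had 3 of 17 and 4 of 11 lower, DESeq2 had 0 and 0 lower, and neither had a member higher. Over all genes edgeR had 464 lower and 1159 higher of 23320 at that p, and DESeq2 432 and 1620 of 44333. Without KO 1 the branch counts of members called lower were 0 and 0, with 25 of all tested genes called lower. Without KO 2 they were 5 and 6, with 557 of all tested genes called lower. Leaving out another library gave 0 to 2 and 1 to 4, with 25 to 503 of all tested genes called lower. The other 9 members were read from the same fit on 21498 genes, the mean minimum set to 10, where 1.14% were called higher and 0.395% lower. Of the 19 tested members, 10 had all 4 KO values below all 4 HET values (4 of 11 and 6 of 8), beside 10.3% of all tested genes. Of the other 9 members 2 did, beside 4.27% of the 21498 genes. Those 21498 genes also hold the 6697 genes of higher level, so they are not a like set for the 9. The median log2 fold change of tested members was −0.56 in the cholesterol branch and −0.54 in the fatty acid branch, beside −0.0024 over all tested genes. The same 2 medians were −0.32 and −0.30 under the deposited size factors, which set the median of all these genes at 0.24. A change of scaling shifts every log2 fold change by nearly the same amount. The distance to all genes was therefore bound to stay at −0.56 and −0.54. No member passed with the deposited size factors (limma; 0.956% of genes higher and 0% lower, or 0.921% and 0.0233% of the 21498 genes) or with DESeq2 (0.476% and 0.00677%), and edgeR called 1, Fads2 (0.81% and 0.0557%). With KO 1 and KO 2 only, 1 member of each branch was called lower (2.06% of genes higher, 1.39% lower), and with KO 3 and KO 4 only, 1 and 4 were (5.44% higher, 5.37% lower). With the 5 libraries that hold both sexes, 0 members and 0 of all tested genes were called in either direction. A call lost in that fit, as given below for single genes, was lost for every gene. Over all genes, 404 were called higher and 284 lower, against 64 and 0 with the deposited size factors.

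**Figure D1:**
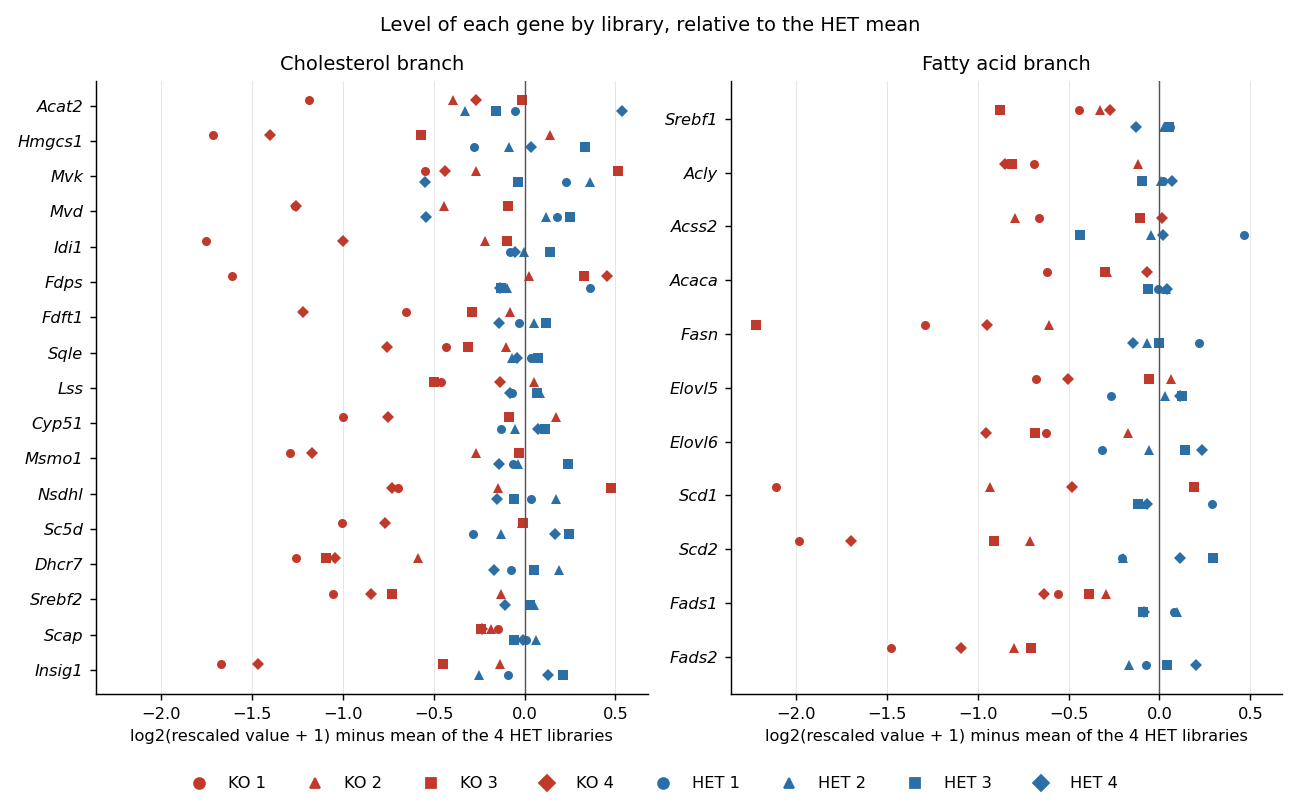
Each row is a gene in pathway order, and each point is 1 library, as log2(normalised count + 1) minus the mean of the 4 HET libraries (x axis, log2 units); KO points stand above HET points in each row. In the cholesterol branch KO 1 and KO 4 lie far to the left for most genes while KO 2 and KO 3 lie nearer to HET, and in the fatty acid branch most KO points lie left of 0.

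The early, mevalonate and isoprenoid steps include Hmgcs1, which makes HMG-CoA (chromosome 13, 119690379 to 119708260, plus strand, mm10). Its normalised count was 1278, 4629, 2829 and 1590 in KO 1 to KO 4, against 3463, 3959, 5285 and 4309 in HET 1 to HET 4. KO 1, KO 3 and KO 4 lay below every HET library, and KO 2 lay inside the HET range. The log2 fold change was −0.89 (standard error, SE, 0.35; limma adjusted p = 0.11), which did not pass.

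Idi1 isomerises isopentenyl diphosphate, the isoprenoid unit. It was at 76.4, 223, 243 and 130 in KO and at 245, 259, 287 and 251 in HET, so the groups did not overlap (log2 fold change −0.77, SE 0.31, limma adjusted p = 0.119). KO 3 lay just below HET 1, and 25.3% of the 50-base words of Idi1 transcripts also occur in other annotated genes, so its count may hold shared reads. Mvd, which decarboxylates mevalonate diphosphate, averaged 66.7 ± 27.7 in KO and 109 ± 24.7 in HET (SD, n = 4 each), with overlap at HET 4 (73.0). Mvk, mevalonate kinase, averaged 75.5 ± 28.6 in KO and 84.5 ± 21.9 in HET, and KO 3 held its highest value of all 8 (118).

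Fdps, farnesyl diphosphate synthase, had the KO mean closest to HET. It was at 19.5, 62.6, 77.2 and 84.7 in KO and at 79.2, 57.4, 56.1 and 55.9 in HET, from 39 to 94 reads per library. KO 1 was the lowest library and KO 4 the highest. Its log2 fold change was −0.20 (SE 0.43, limma adjusted p = 0.874), and 26.2% of its 50-base words occur in other annotated genes. Acat2, the cytosolic acetoacetyl-CoA thiolase, averaged 35.1 ± 11.1 in KO and 48.1 ± 13.9 in HET on 24 to 60 reads per library. It shares 39.1% of its 50-base words with Acat3, so reads of the pair cannot be told apart there.

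Squalene and sterol enzymes were lower on average in 8 of 8, and only Dhcr7 passed. Dhcr7, which catalyses the last step to cholesterol (chromosome 7, 143823145 to 143848410, plus strand), was at 87.9, 140, 98.5 and 102 in KO, against 200, 241, 219 and 188 in HET. Each KO library was below each HET library. The log2 fold change was −0.996 (SE 0.18, limma adjusted p = 0.021, over 21498 genes). The call was lost without KO 1 (adjusted p = 0.078), KO 4 (0.051), HET 1 (0.073), HET 2 (0.102) or HET 3 (0.076), with edgeR (0.141) and with DESeq2 (0.729). It was also lost with the 5 libraries of both sexes (limma adjusted p = 0.113), where 0 of all genes were called.

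Sqle, squalene epoxidase and a control point of the pathway, was at 1555, 1960, 1696 and 1243 in KO and at 2155, 2004, 2217 and 2042 in HET. The groups did not overlap, though KO 2 and HET 2 lay close (log2 fold change −0.40, SE 0.15, limma adjusted p = 0.104). Msmo1, a sterol C4 demethylase, was at 1185, 2413, 2841 and 1288 in KO and at 2777, 2831, 3422 and 2635 in HET. KO 1 and KO 4 were below every HET library by a wide margin, and KO 3 lay inside the HET range (log2 fold change −0.69, SE 0.27, limma adjusted p = 0.11). Fdft1, squalene synthase, averaged 1064 ± 338 in KO and 1507 ± 116 in HET, with KO 2 (1421) inside the HET range. Its exons share 774 bases with Ctsb on the opposite strand, and the strand setting of the counting is not stated.

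Cyp51, lanosterol demethylase, averaged 1041 ± 388 in KO and 1320 ± 102 in HET. Sc5d, a late desaturase of the sterol ring, averaged 416 ± 142 in KO and 548 ± 93.6 in HET. For both, KO 1 and KO 4 lay below all HET libraries and KO 2 and KO 3 inside or above the HET range. Lss, lanosterol synthase, averaged 545 ± 101 in KO and 645 ± 39.3 in HET, and its lowest libraries were KO 3 (456) and KO 1 (469). Nsdhl, which acts with Msmo1, averaged 128 ± 54.0 in KO and 146 ± 14.3 in HET, and KO 3 (203) was the highest library of all.

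Of the sterol regulators, Srebf2, which encodes the SREBP-2 factor of cholesterol synthesis (chromosome 15, 82147181 to 82205379, plus strand), fell. It was at 1075, 2039, 1346 and 1239 in KO, against 2270, 2314, 2278 and 2067 in HET. The 4 HET libraries were close to each other, while KO 2 was just below the lowest of them. The log2 fold change was −0.69 (SE 0.18, limma adjusted p = 0.040). The call was lost without KO 1 (adjusted p = 0.115), KO 4 (0.074), HET 1 (0.116), HET 2 (0.113), HET 3 (0.095) or HET 4 (0.074), with KO 1 and KO 2 only (0.134), with genes of a mean of 10 or more in the fit (0.082) or in the TMM factors (0.446), with edgeR (0.871) and with DESeq2 (0.923). It was also lost with genes of a mean of 50 or more in the fit (limma adjusted p = 0.055) and with the 5 libraries of both sexes (0.231), where 0 of all genes were called.

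Insig1, which retains SREBPs and is itself an SREBP target, was at 681, 1971, 1591 and 785 in KO and at 2039, 1823, 2511 and 2372 in HET. As with Hmgcs1, KO 1 and KO 4 were low and KO 2 lay inside the HET range (log2 fold change −0.93, SE 0.31, limma adjusted p = 0.073). Scap, the escort protein, varied little between libraries. It was at 515, 501, 483 and 485 in KO and at 573, 594, 547 and 567 in HET, 86.9% of HET on average, with no overlap (log2 fold change −0.20, SE 0.094, limma adjusted p = 0.170). Under the deposited scaling its log2 fold change was 0.041, against the 0.24 of all tested genes.

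**Figure D2:**
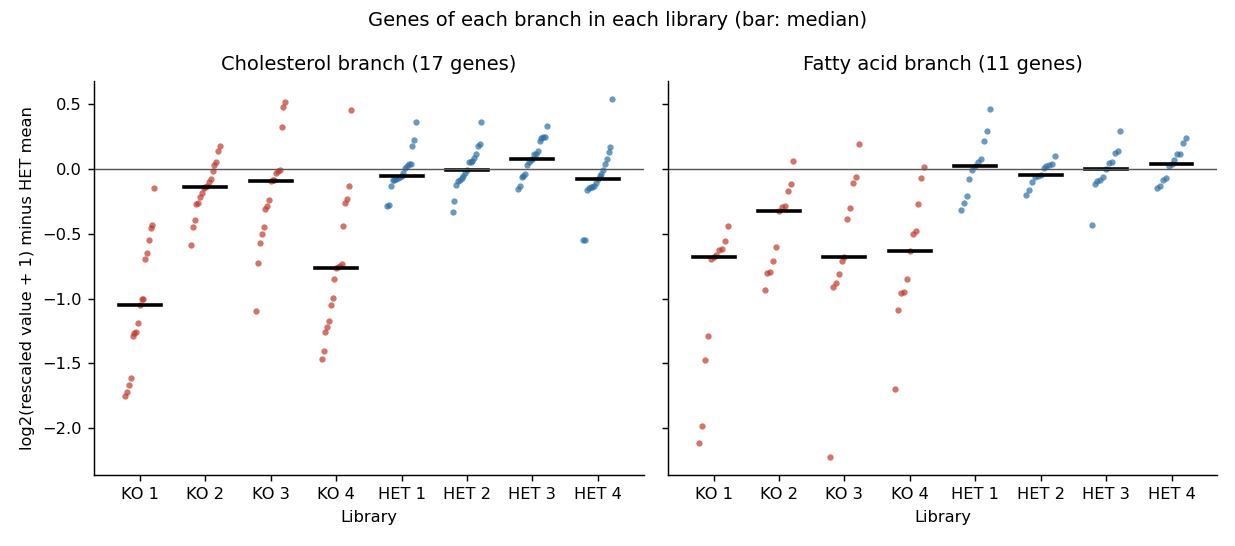
Each point is a gene of the branch in 1 library, as log2(normalised count + 1) minus its HET mean (y axis), and the bar is the median of the branch; KO libraries stand left of HET libraries. Cholesterol branch medians lie at −1.05 and −0.77 in KO 1 and KO 4 and at −0.14 and −0.10 in KO 2 and KO 3, while fatty acid branch medians lie between −0.68 and −0.33 in all 4 KO libraries.

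The KO libraries were spread widely within the cholesterol branch. Over the 17 genes of the cholesterol branch, the median relative to the HET mean was −1.05, −0.14, −0.10 and −0.77 log2 units in KO 1 to KO 4, against −0.08 to 0.08 in HET. Over the 11 genes of the fatty acid branch it was −0.68, −0.33, −0.68 and −0.64 in KO 1 to KO 4, against −0.05 to 0.04 in HET. KO 1 was the lowest KO library for 12 of 17 cholesterol genes and KO 2 for 0, while the highest was KO 2 for 8 and KO 3 for 7. The difference between branches was not tested. KO 1 and KO 4 were also the libraries with the lowest share of beta-cell marker reads given above, and Ins2 had a log2 fold change of −0.95 (SE 0.46, limma adjusted p = 0.186). Of the 11 beta-cell markers 9 had a negative log2 fold change, with a median of −0.45, and 0 were called (limma; 2 lower before adjustment, beside 1023 of all 6697 genes; 0 by edgeR or DESeq2). Whether fewer reads of beta-cell genes per library have a part in the low values of this pathway was not tested, and in sorted bulk cells fewer cells of a type and less RNA per cell cannot be told apart.

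In the fatty acid branch, Srebf1, which encodes the SREBP-1 factors of fatty acid synthesis, was at 890, 963, 657 and 1003 in KO and at 1257, 1230, 1253 and 1105 in HET. All KO libraries lay below all HET libraries, KO 3 lowest (log2 fold change −0.48, SE 0.14, limma adjusted p = 0.057, which did not pass). Acly, which makes cytosolic acetyl-CoA from citrate, had the highest level per length of the 28 genes. It was at 9954, 14834, 9159 and 8921 in KO and at 16305, 16185, 15066 and 16854 in HET, with no overlap and KO 2 close to HET 3 (log2 fold change −0.62, SE 0.21, limma adjusted p = 0.076). Acss2, which makes acetyl-CoA from acetate, averaged 177 ± 48.4 in KO and 231 ± 59.8 in HET, with overlap. Acaca, acetyl-CoA carboxylase, was at 355, 446, 442 and 521 in KO and at 542, 559, 522 and 561 in HET. Its groups did not overlap, by a margin of 521 in KO 4 against 522 in HET 3, and 30.4% of its 50-base words occur in other annotated genes.

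Fasn, fatty acid synthase, fell (chromosome 11, 120805846 to 120824547, minus strand). It was at 825, 1327, 433 and 1046 in KO, against 2348, 1929, 2013 and 1823 in HET. KO 3 was the lowest library, and every KO library was below every HET library. KO 3 was also lowest for Srebf1, though over the 28 genes it was the lowest KO library for 4 and the highest for 9. It had the highest mitochondrial share of reads, whose part was not tested. The KO mean was 44.8% of the HET mean and the log2 fold change −1.27 (SE 0.28, limma adjusted p = 0.022). Under the deposited scaling the same gene was at 1482, 2524, 247 and 691 in KO and 1936, 1890, 2306 and 1295 in HET, where the groups overlap. The call was lost without KO 1 (adjusted p = 0.066), HET 1 (0.078), HET 2 (0.065) or HET 3 (0.056), with edgeR (0.420) and with DESeq2 (0.725). It was kept without KO 3 (limma adjusted p = 0.013), with KO 1 and KO 2 only (0.040) and with KO 3 and KO 4 only (0.024). It was also lost with no minimum mean (limma adjusted p = 0.266) and with the 5 libraries of both sexes (0.113).

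Scd2, a stearoyl-CoA desaturase that makes monounsaturated fatty acids, had the largest log2 drop of the 28 genes (chromosome 19, 44293674 to 44306864, plus strand). It was at 850, 2052, 1788 and 1036 in KO, against 2909, 2925, 4124 and 3637 in HET. KO 1 and KO 4 were lowest, and KO 2, the highest KO library, was still below HET 1. The KO mean was 42.1% of the HET mean, with a log2 fold change of −1.33 (SE 0.27, limma adjusted p = 0.016). The call was lost without KO 1 (adjusted p = 0.051), with KO 1 and KO 2 only (0.072), with edgeR (0.221) and with DESeq2 (0.617), and kept with KO 3 and KO 4 only (0.024). It was also lost with no minimum mean (limma adjusted p = 0.194) and with the 5 libraries of both sexes (0.140), where 0 of all genes were called.

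Scd1, the neighbouring desaturase gene on the same chromosome, was at 14.5, 34.0, 75.3 and 46.9 in KO and at 80.8, 61.2, 60.6 and 62.7 in HET. KO 3 lay inside the HET range (log2 fold change −0.83, SE 0.44, limma adjusted p = 0.490), on 29 to 81 reads per library. Per kilobase of exon Scd2 was at 622 and Scd1 at 13.6 in HET. Of the 50-base words of Scd1, 4.56% occur in other annotated genes.

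The desaturases of polyunsaturated fatty acids, Fads1 and Fads2, lie near each other on chromosome 19, on opposite strands, and both fell. Fads1, the delta-5 desaturase (10182888 to 10196877), was at 245, 295, 276 and 232 in KO, against 382, 387, 340 and 341 in HET. The log2 fold change was −0.47 (SE 0.12, limma adjusted p = 0.033). Fads2, the delta-6 desaturase (10062765 to 10101746), was at 52.9, 85.1, 90.8 and 69.4 in KO, against 141, 133, 153 and 171 in HET. Its log2 fold change was −1.02 (SE 0.21, limma adjusted p = 0.039, over 21498 genes). Neither gene had an overlap between groups. The call of Fads1 was lost with KO 1 and KO 2 only (adjusted p = 0.066), with KO 3 and KO 4 only (0.071), without KO 1 (0.099), KO 4 (0.065), HET 1 (0.105), HET 2 (0.107), HET 3 (0.069) or HET 4 (0.063), with genes of a mean of 10 or more in the fit (0.092) or in the TMM factors (0.515), with edgeR (0.859) and with DESeq2 (0.992). That of Fads2 was lost without KO 1 (0.131), KO 4 (0.079), HET 1 (0.122), HET 2 (0.116), HET 3 (0.126) or HET 4 (0.122) and with DESeq2 (0.661), and kept with edgeR (0.044). With no minimum mean both calls were lost (limma adjusted p = 0.303 for Fads1 and 0.053 for Fads2). With the 5 libraries of both sexes, where 0 of all genes were called, that of Fads1 was lost (0.144).

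Elongases were lower on average and not called. Elovl6, which extends C16 fatty acids, was at 273, 375, 263 and 217 in KO and at 339, 406, 465 and 497 in HET. KO 2 lay inside the HET range (log2 fold change −0.61, SE 0.18, limma adjusted p = 0.051, just above the threshold). Elovl5, which extends polyunsaturated fatty acids, averaged 913 ± 220 in KO and 1102 ± 131 in HET, with KO 2 and KO 3 inside the HET range.

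**Figure D3:**
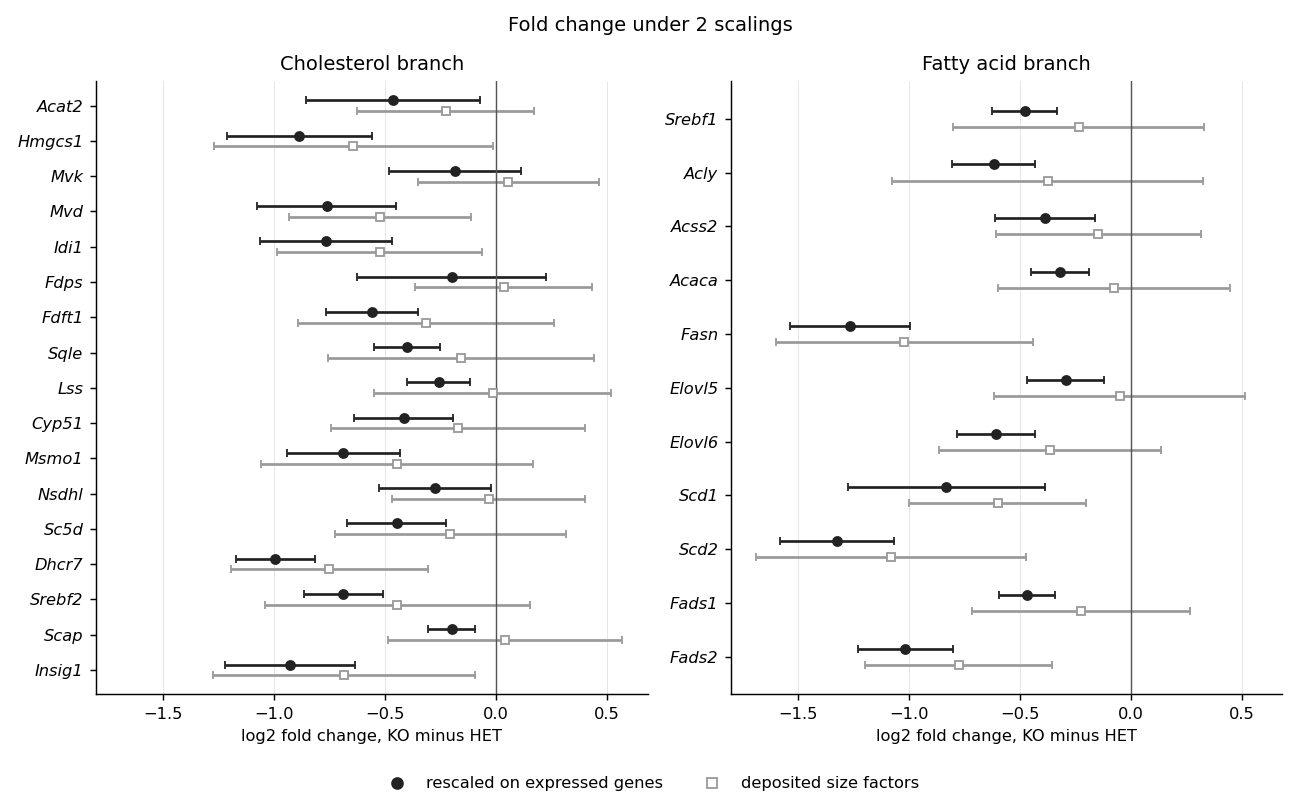
Points are log2 fold changes, KO minus HET, with standard errors (x axis), for each gene in pathway order, from the fit over 21498 genes with library sizes taken from expressed genes (filled circles) and with the deposited size factors (open squares). With the first, all 28 genes lie left of 0, and with the second 25 of 28.

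Per kilobase of exon, which allows levels of different genes to be compared, the 28 genes spanned a wide range in HET beta cells. Acly stood apart at 3050 normalised counts per kilobase, above Hmgcs1 (926), Insig1 (707), Scd2 (622) and Msmo1 (475). At the low end were Acss2 (22.7), Acat2 (18.9), Fdps (14.8) and Scd1 (13.6). Of the 27 steps between neighbours in this order, 22 had overlapping ranges of the 4 HET libraries, so only 5 steps separate neighbours beyond their spread. These were Acly above Hmgcs1, Msmo1 above Sqle, Cyp51 above Srebf1, Fasn above Sc5d and Sc5d above Scap. Exon lengths take in all annotated transcripts, so the level of a gene with long rare transcripts is understated.

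**Figure D4:**
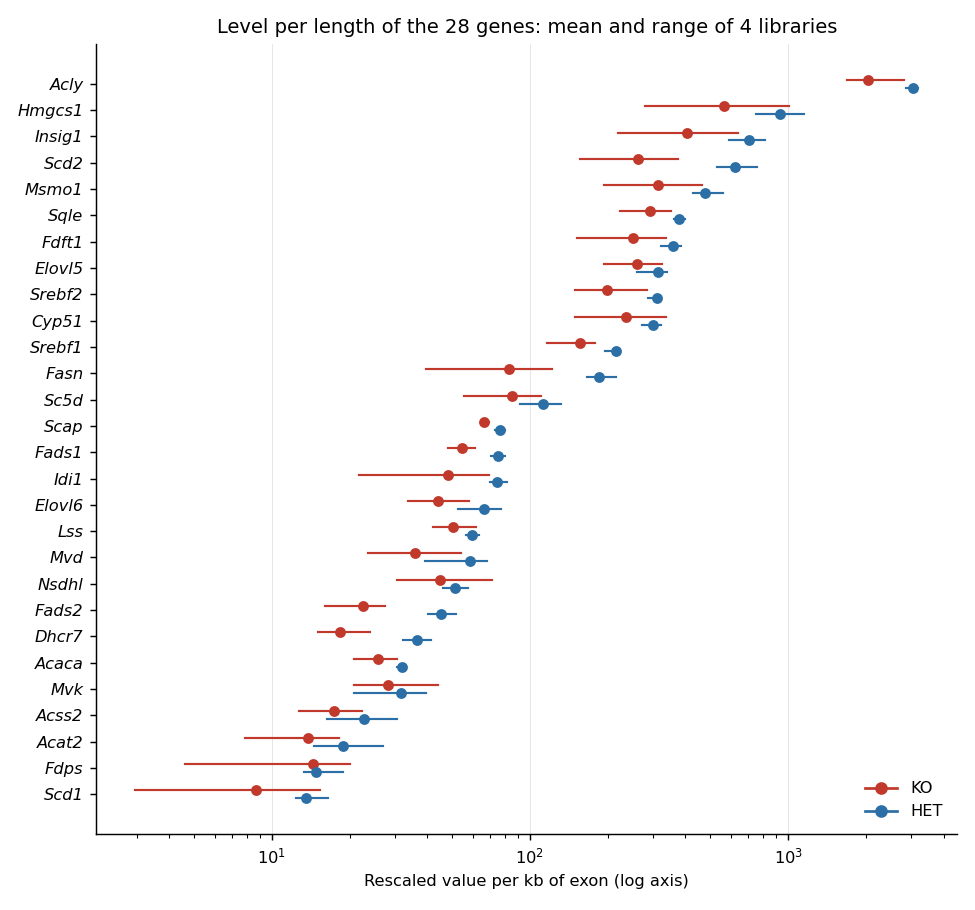
Points are mean normalised counts per kilobase of exon on a log axis and lines the range of 4 libraries, KO above HET for each gene, ordered by the HET mean. Acly stands at the top at 3050 in HET and Scd1 at the bottom at 13.6, and KO ranges are longer than HET ranges for Hmgcs1, Insig1, Idi1 and Fasn.

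Other genes of cholesterol synthesis and uptake had negative log2 fold changes in 9 of 13 tested. Of 18 listed genes 13 were tested, with 5 called lower and 2 higher (limma, against 4.24% and 6.03% of all tested genes), and their median log2 fold change was −0.70. Pmvk, phosphomevalonate kinase, fell, with 291 ± 87.8 in KO and 469 ± 63.4 in HET (log2 fold change −0.73, limma adjusted p = 0.046). Scarb1, a receptor for HDL, fell too, with 163 ± 14.1 in KO and 266 ± 23.1 in HET (log2 fold change −0.70, limma adjusted p = 0.012). Stard5, a lipid-transfer protein, rose instead, with 640 ± 196 in KO and 237 ± 23.2 in HET (log2 fold change 1.38, limma adjusted p = 0.0037). Ggps1, which takes isoprenoids towards geranylgeranyl groups and not towards sterols, rose as well, with 571 ± 86.2 in KO and 393 ± 34.7 in HET (log2 fold change 0.53, limma adjusted p = 0.029).

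Stard5 kept its call on leaving out each library (highest adjusted p = 0.016), and Scarb1 lost it only without KO 1 (adjusted p = 0.051). Pmvk kept its call only without KO 2 or KO 3 (highest adjusted p = 0.125), and Ggps1 only without KO 2, KO 3 or KO 4 (highest adjusted p = 0.097).

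Genes that process SREBPs or act in the degradation of sterol enzymes had 0 of 11 tested members called (limma, with 1 up and 4 down at unadjusted p under 0.05; edgeR called 1 higher and DESeq2 0), with a median of −0.21. At that p limma had 1045 up and 1023 down of all 6697 genes tested. Up over all genes were 1159 of 23320 in edgeR and 1620 of 44333 in DESeq2. Erlin1, of an endoplasmic reticulum complex in protein degradation, averaged 342 ± 98.1 in KO and 228 ± 17.9 in HET (limma adjusted p = 0.069), and Rnf145, a ubiquitin ligase, 525 ± 67.1 in KO and 671 ± 62.9 in HET (limma adjusted p = 0.081). Among genes of efflux, storage and trafficking, 2 of 9 tested were called lower and 0 higher (limma, with 0 up and 4 down at unadjusted p under 0.05; neither edgeR nor DESeq2 called any, with 2 up at that p in each), with a median of −0.11. Soat1, which esterifies cholesterol, was at 64.9% of HET (log2 fold change −0.61, limma adjusted p = 0.022), and Nceh1, a hydrolase of cholesteryl esters, at 58.9% (log2 fold change −0.79, limma adjusted p = 0.016). Both lost their call without KO 1 or HET 1, and Soat1 also without HET 2 (highest adjusted p = 0.079 for Soat1 and 0.060 for Nceh1).

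Of the other genes of fatty acid synthesis, elongation and activation, 0 of 13 tested were called (limma, with 2 up and 5 down at unadjusted p under 0.05, and 0 by edgeR or DESeq2), and their median was −0.065. For this list and those below, limma had 1045 up and 1023 down of all 6697 genes at that p. Mlxipl, which encodes the glucose-responsive factor ChREBP, averaged 1447 ± 445 in KO and 2356 ± 255 in HET with no overlap (limma adjusted p = 0.055). Mid1ip1, an activator of acetyl-CoA carboxylase, averaged 871 ± 56.5 in KO and 690 ± 47.3 in HET (limma adjusted p = 0.062). Of glycerolipid genes 1 of 7 tested was called lower, Lpin2, a phosphatidate phosphatase, at 68.6% of HET (log2 fold change −0.54, limma adjusted p = 0.013), which lost its call without KO 1 or HET 2 (highest adjusted p = 0.051). Of 9 tested genes of fatty acid oxidation, 0 were called (limma, with 2 up and 0 down at unadjusted p under 0.05, and 0 by edgeR or DESeq2), with a median of 0.010. Acadl and Cpt1a, of mitochondrial oxidation, averaged 288 ± 45.3 and 499 ± 107 in KO, against 199 ± 31.5 and 362 ± 66.1 in HET (limma adjusted p = 0.062 and 0.103). With the deposited size factors 0 genes of these 6 lists were called by limma (1 higher and 0 lower at unadjusted p under 0.05, beside 186 and 5 of all 6697 genes), and their medians, in the order given, were −0.46, 0.03, 0.13, 0.18, −0.02 and 0.25, beside 0.24 for all tested genes.

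**Figure D5:**
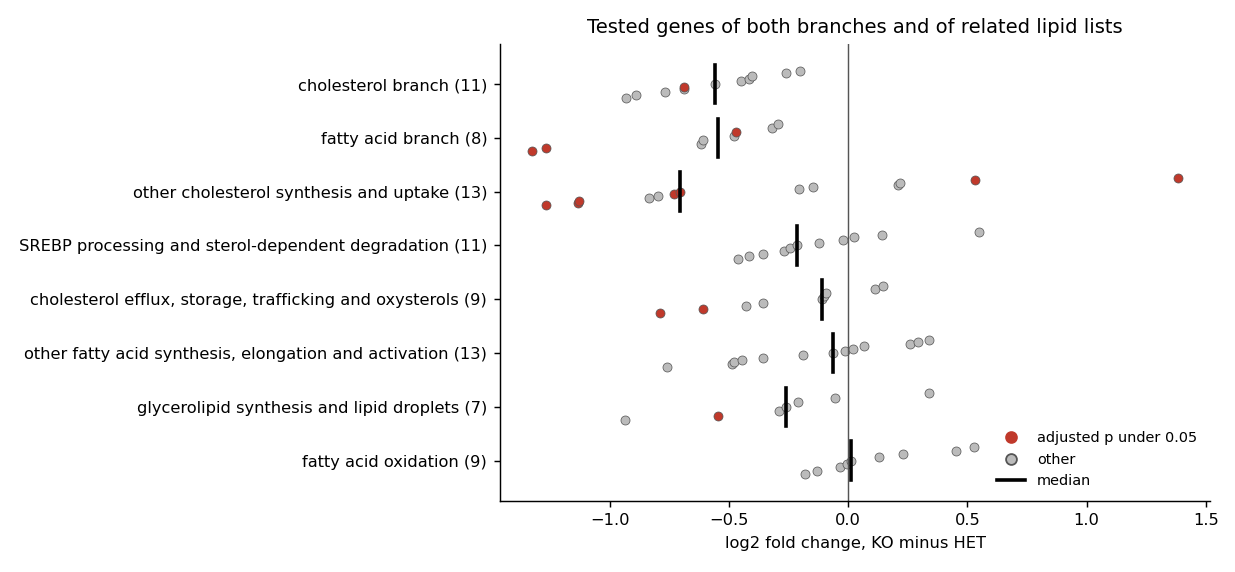
Points are log2 fold changes, KO minus HET (x axis), of the genes tested in each list, with the number of genes in parentheses, red where the adjusted p was under 0.05, and the bar is the median. Medians run from −0.70 for the other genes of cholesterol synthesis and uptake to 0.010 for fatty acid oxidation.

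Markers of other cell types were read at different levels in the sorted cells. Summed over 7 adipocyte genes, cells rich in Fasn and Scd1, the normalised count was 19.1 to 138 in KO and 51.6 to 129 in HET, and all 7 means were lower in KO. Summed over 7 macrophage genes it was 103 to 319 in KO and 354 to 539 in HET, and all KO libraries lay below all HET libraries. Of the 7 macrophage means only 5 were lower in KO. C1qa had the highest mean and fell (log2 fold change −2.04, limma adjusted p = 0.0064, over 21498 genes), while Csf1r and Adgre1, which define the type, had log2 fold changes of −0.68 and −0.56 and were not called. The endothelial sum over 5 genes was 59.2 to 475 in KO and 180 to 401 in HET, the sum over 6 stellate cell and fibroblast genes 43.5 to 494 in KO and 147 to 341 in HET, and the acinar sum over 10 genes 40.8 to 398 in KO and 100.3 to 244 in HET. Over 6 T cell genes it was 15.6 to 180 in KO and 59.1 to 143 in HET, and over 3 B cell genes 19.7 to 147 in KO and 47.9 to 114 in HET. The sum over 5 duct genes was 2122 to 2574 in KO and 2187 to 2600 in HET, mostly of Krt7. For alpha cells (5 genes) it was 525 to 1520 in KO and 583 to 978 in HET, for delta cells (3 genes) 189 to 1058 in KO and 163 to 436 in HET, and for Ppy 48.9 to 429 in KO and 31.4 to 96.9 in HET. No listed marker was at 0 in all libraries. The lower macrophage sum moves with genotype as the pathway does, and its part in the results was not tested.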

How the data were processed

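RNA of 8 libraries was measured with a Takara SMARTer stranded total RNA kit for pico input, per the labels' protocols. The submitters' processing notes name the aligner STAR 2.7.3a, HTSeq, UMI-tools, DESeq2 1.28.1, FastQC 0.11.8 and the build mm10; annotation, strand setting and duplicate removal are not given in the sources used here. The deposited signal (normalized counts) equals whole reads scaled by 1 factor for each library: 100% of them were whole multiples of the library's smallest value above 0 (tolerance 0.001 of a step), which gave whole reads.

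These were divided by TMM library sizes (edgeR 4.0.16) from genes with a deposited mean of at least 200 and tested with limma 3.58.1 (R 4.3.3; pseudocount 1, eBayes with trend and robust settings, two-sided, genotype only, n = 4 each). On this log2(value + 1) scale the added 1 shrinks the fold changes of low genes. As means of logs they also give a low library more weight than a ratio of means does, so a fall can look larger. For Fdps the KO mean was 98.1% of the HET mean, while the log2 fold change was −0.20. Members with a mean under 200 were read from the fit at a mean of at least 10. edgeR and DESeq2 1.42.0 on recovered reads and 24 settings in all were alternatives, and the fit was tested on simulated data. Replicate pairs all differed beyond counting noise (chi-square over its degrees of freedom at least 29.7 in KO and 3.77 in HET).

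Members, lists, scaling and tests were chosen with earlier results of these data known. The text names all 28 members and, of each other list, the called genes or else the 2 of smallest p, and says where it names others, cell type markers aside. Some called genes of the other lists are counted and not reported here by name. Coordinates are of GENCODE M21 on mm10, where 42961 symbols matched. Groups and replicate numbers came from sample titles.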

Additional observations from a re-analysis of the deposited data

Results flagged for a closer look

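In 60 groups of 4 libraries tested (28 genes and 2 branch medians in KO and in HET), 6 held a library set apart from the other 3, where chance gives about 1 in 20. In HET, Fdps was at 79.2 in HET 1 and 55.9 to 57.4 in the others, and Scd1 at 80.8 in HET 1 and 60.6 to 62.7 in the others. HET 4 was low for Mvd (73.0, others 116 to 127), for Srebf2 (2067, others 2270 to 2314) and for Srebf1 (1105, others 1230 to 1257). In KO, the median of the fatty acid branch relative to HET was −0.33 in KO 2 and −0.68 to −0.64 in the others.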

How the results depend on the processing

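Counts give the genes called up and down in the whole table (404 and 284 in the reported fit) and of cholesterol and fatty acid members called lower (1 and 3); medians are log2 fold changes of the 11 and 8 members of that fit, kept the same under each setting (−0.56 and −0.54). The deposited scaling gave 64, 0, 0 and 0, with a fatty acid median of −0.30, and with a mean of at least 10 it gave 198, 5, 0 and 0, with −0.30 (−0.37 over all 11 fatty acid members). TMM factors from genes with a mean of at least 10 gave 161 higher, 39 lower and 0 cholesterol members. A mean of at least 10 gave 246 higher and 85 lower, and no filter 241, 146, 2 and 0. Array weights gave 940, 918, 9 and 8, edgeR 189, 13, 0 and 1, and DESeq2 211, 3, 0 and 0, with a cholesterol median of −0.0081 and a fatty acid branch members median log2 fold change of −0.0247 (−0.0638 over all 11). DESeq2 set its own size factors, so these 2 medians are not on the scale of the reported fit, and its median over all genes is not given here. From the reported fit to DESeq2, Scap moved from −0.20 to 0.25, Sqle from −0.40 to 0.10 and Scd2 from −1.33 to −0.82. KO 1 and KO 2 against HET gave 145 higher, 98 lower and 1 fatty acid member. The 5 libraries of both sexes gave 0, 0, 0 and 0 (limma; unadjusted p under 0.05 for 876 up and 865 down). Leaving out 1 library gave 110 to 621 higher, 25 to 557 lower, 0 to 5 cholesterol members and 0 to 6 fatty acid members, with fewest higher without KO 1 and most without KO 2. The causes of these shifts were not tested. Replicate numbers were not taken to pair the libraries, since the labels name no litter or day that they share. Same-numbered libraries correlated at 0.22, −0.05, 0.13 and 0.28, and differently numbered ones at −0.26 to 0.26, which does not settle whether they are paired. With the replicate number as a block 499 genes were higher, 439 lower and 5 cholesterol members lower. Members with 24 to 94 reads per library (Fdps, Acat2 and Scd1) are limited by depth.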
